A study of Mus musculus with 6 samples.

Results

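Cytosolic ribosomal protein genes and their paralogs were followed in mouse embryonic stem (ES) cells with and without Morc3, an ATPase of the MORC family that acts in heterochromatin. The members were taken by symbol, as the genes named Rpl, Rps or Rplp followed by a number, together with Rpsa, leaving out pseudogene symbols and the Rps6k kinases, and requiring at least 30 sense-strand counts over all libraries. Of 24054 gene rows, 87 matched the symbols and 85 reached the count minimum. These 85 comprised 42 core genes of the large subunit, 3 of its P-stalk, 31 core genes of the small subunit, 8 paralogs and Rps19bp1, whose product is a nucleolar regulator and no structural ribosomal protein. Rpl26, a core gene, and Rps27rt, a copy of Rps27, matched the symbols but were counted 0 times in all 6 libraries. A count of 0 allowed up to 0.210 to 0.277 CPM (a gene's counts scaled to the library total after TMM normalisation) in a library, as 3 counts on this scale and for counting error only.

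RNA-seq was made from 3 clones with a Morc3 knock-out (ko clone 1, 2 and 3) and from 3 cultures of the wild-type line WT26, named p42, p43 and p56 after their titles, in which the meaning of the letter p was not given. Both groups were feeder-independent ES cells grown on gelatin in medium with serum and LIF, and the study's methods give each ko line as a single clone, derived from the wild-type line by Cas9 cleavage. The wild-type libraries are cultures of 1 line, so p-values measure the spread between these clones and cultures. The libraries were rRNA-depleted and strand-specific. They held 10740618 to 11525164 sense gene counts in ko and 13013286 to 14123131 in wild type. Morc3 itself lay at 77.8, 138 and 135 CPM in ko clones 1, 2 and 3 and at 277, 272 and 302 CPM in p42, p43 and p56. All ko clones were below all wild-type cultures (log2 fold change -1.28, SE 0.16). Pluripotency markers were high in both groups, with a summed level of 6599 to 6679 CPM in ko and 6153 to 6192 CPM in wild type. These sums did not overlap. Of the 10 markers 3 had a log2 fold change below 0. None had an edgeR adjusted p under 0.01, beside 1.28% of all genes tested. Wild-type p56 stood apart on chromosome 14, where the median log2 ratio of 423 genes to the wild-type mean was 0.22 in p56, -0.13 in p42 and p43, and -0.24 to -0.21 in the ko clones.

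A cytosolic ribosome is built from a small 40S and a large 60S subunit, each made of ribosomal RNA and a fixed set of proteins that are encoded by single, highly expressed genes scattered over the genome. Their mRNAs typically begin with a run of pyrimidines, the 5′ terminal oligopyrimidine (TOP) tract, through which mTOR signalling controls their translation. Some of these genes have paralogs with a restricted expression, among them Rpl10l and Rpl39l, which are known from male germ cells, and Rpl3l, which is known from heart and skeletal muscle. Most core genes also have many processed pseudogenes, from which short reads are hard to separate.

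How far a paralog can be told from its parent depends on their sequences. Over their coding sequences, Rpl10l and Rpl10 differed at 98 of 642 aligned bases, an identity of 84.7%, and 89 of these differences lay at the last base of a codon. Rpl39l and Rpl39 differed at 23 of 153 bases (identity 85.0%). No stretch of 50 aligned bases, the length of a read, was the same in both genes of either pair, and the median number of differences in a stretch was 8 for Rpl10l and 7 for Rpl39l. The following coding stretches carry this median number of differences, which are in capitals. They were read from the transcripts of GENCODE M21 (GRCm38) and cover coding bases 1 to 50 of Rpl10l (chr12:66284308-66284357, minus strand) and of Rpl10 (chromosome X, across an intron), and coding bases 47 to 96 of Rpl39l (chr16:10174356-10174405, plus strand) and of Rpl39 (chrX:37083996-37084045, minus strand).
Rpl10l: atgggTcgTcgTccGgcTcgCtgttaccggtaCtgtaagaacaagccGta
Rpl10: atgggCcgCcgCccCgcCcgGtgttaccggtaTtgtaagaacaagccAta
Rpl39l: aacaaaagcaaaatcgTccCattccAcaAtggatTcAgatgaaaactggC
Rpl39: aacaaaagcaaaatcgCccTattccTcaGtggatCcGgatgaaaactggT
By contrast, the coding sequence of the uncounted Rps27rt, a gene with 1 exon, was the same as that of Rps27 at all 252 bases. Its first 50 coding bases (chr9:114982658-114982707, minus strand) are shown because a read from them cannot be assigned to either gene by its letters alone.
Rps27rt and Rps27: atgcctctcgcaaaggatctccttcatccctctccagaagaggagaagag

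The starts of the genes were examined for the pyrimidine tract in RefSeq promoter windows (GRCm38.p6), which were found for 56 of the 76 core genes (66 windows) and 7 of the 8 paralogs (9 windows). A tract was counted where a C was followed by at least 4 bases that are C or T, within the 30 bases from 10 before to 20 after the annotated start. It was found in 40 core windows (60.6%) and 6 paralog windows, against 35.8% of all 32851 windows. A tract counted so can lie wholly before the annotated start or well after it, so this is no count of TOP mRNAs. Over the whole 300 bases and on both strands, CCGGAA, the core of the GABPA motif, was found in 48.5% of the core windows and 14.9% of all windows. AAGATGGC, the YY1 motif, was found in 10.6% and 2.75%, CACGTG, an E-box, in 12.1% and 7.15%, and the TATA box TATAAA in 9.09% and 13.6%. The windows at the starts of Rpl10l (chr12:66284382-66284411, minus strand), Rpl10 (chrX:74270806-74270835, plus strand), Rpl39l (chr16:10170218-10170247, plus strand), Rpl39 (chrX:37085203-37085232, minus strand), Rps27l (chr9:66946076-66946105, plus strand) and Rps27 (chr3:90213629-90213658, minus strand) are shown to set the paralogs beside their parents, with the longest tract in capitals.
Rpl10l: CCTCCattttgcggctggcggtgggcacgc
Rpl10: tacagtggaagataggccgcctatataagg
Rpl39l: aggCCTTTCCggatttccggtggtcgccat
Rpl39: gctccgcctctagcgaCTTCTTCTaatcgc
Rps27l: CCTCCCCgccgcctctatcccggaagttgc
Rps27: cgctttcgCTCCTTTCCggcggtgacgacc
The Rps27 window held a tract of 9 pyrimidines across the annotated start and the Rpl39 window a tract of 8 after it. The tracts in the windows of Rpl10l, Rpl39l and Rps27l lay wholly before the annotated start, so that a transcript from that start would not hold them. The Rpl10 window held none. These letters are a description of the windows and not of the true start sites.

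The core genes made up a like part of all sense gene counts in both groups. Their share was 6.18%, 6.38% and 5.86% in ko clones 1, 2 and 3 and 6.03%, 6.36% and 5.97% in p42, p43 and p56, with means of 6.14% ± 0.258 and 6.12% ± 0.214 (SD, n = 3 each). The groups overlapped throughout. The summed level of the large subunit genes and P-stalk was 1.43 to 1.45 times that of the small subunit genes in ko and 1.40 to 1.43 times in wild type.

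Counted levels within the core were compared per kb of transcript, as the mean CPM per kb over all 6 libraries. The highest core genes were Rpl8, Rpl7 and Rplp1, at 2898, 2891 and 2766 CPM per kb. Rpl8 and Rpl7 encode large subunit proteins and Rplp1 encodes a protein of the stalk, which binds the elongation factors. By library, Rpl8 reached 2490.4, 2627 and 2374 CPM in ko and 2415, 2579 and 2313 CPM in wild type. Rpl7 reached 3343, 3514 and 3346 CPM in ko and 3235, 3263 and 3474 CPM in wild type. Rplp1 reached 1404, 1433 and 1283 CPM in ko and 1330.1, 1495 and 1337 CPM in wild type. Rpl8 and Rpl7 differed by less than the spread between libraries. Of the 76 core genes, 72 lay above 100 CPM per kb and the median was 833 CPM per kb. The levels were closely alike in both groups, with a Pearson r of 0.9988 between the log2 levels in ko and wild type. It was taken across the 76 genes, which share libraries and transcript lengths. Their 1732-fold range of levels pulls r towards 1, and r does not measure their order.

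**Figure D1:**
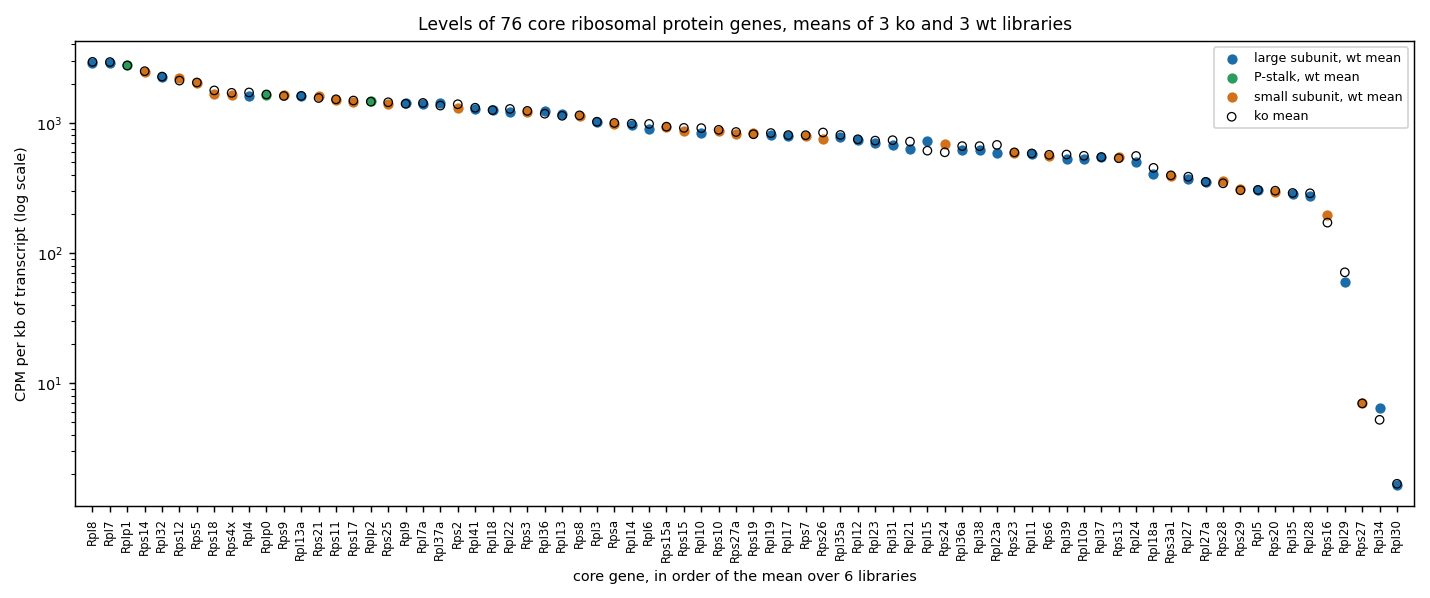
Mean level of each of the 76 core genes in CPM per kb of transcript (log axis), with filled points for the mean of 3 wt libraries, coloured by subunit, and open circles for the mean of 3 ko libraries. The levels run from 2898 CPM per kb for Rpl8 down to 1.67 for Rpl30, and 72 genes lie above 100.

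The lowest core genes were Rpl30, Rpl34 and Rps27, at 1.67, 5.83 and 7.02 CPM per kb, followed by Rpl29 at 65.2. The products of all 4 are stoichiometric parts of the ribosome. Rpl30 was counted 6, 12 and 14 times in ko and 12, 16 and 11 times in wild type. Rpl34 was counted 34, 24 and 25 times in ko and 44, 47 and 36 times in wild type. Rps27 was counted 26, 27 and 27 times in ko and 35, 35 and 30 times in wild type. These 3 genes had the lowest counts of the core in both groups, and the highest core gene exceeded the lowest 1732-fold per kb in the counts as deposited. The gene annotation behind the counts was not given, so that these values, and the 0 of Rpl26 and Rps27rt, cannot be taken as the levels of the transcripts.

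The share of a gene's sequence that is its own was measured as the percent of 50-base windows of its transcript that occur in no transcript of a gene elsewhere. A window stands for 1 read alone, and the other read of a pair was not considered. This share had a median of 45.0% in the core and 84.9% in the 8 paralogs, and it was under 50% in 46 of the 76 core genes. A core gene shared windows with a median of 10 other genes, of which 81.6% were annotated as pseudogenes when summed over the core. Rps27 had the smallest share, 1.35%, and the uncounted Rpl26 had 28.7%. Rpl34 and Rpl30, however, had 49.4% and 52.2%, close to the median, and Rpl10 with 7.87% reached 874 CPM per kb. Across the 76 core genes, which share libraries and annotation, the Spearman correlation of the share with the level per kb was 0.077. The part of shared sequence in the low levels was not tested.

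**Figure D2:**
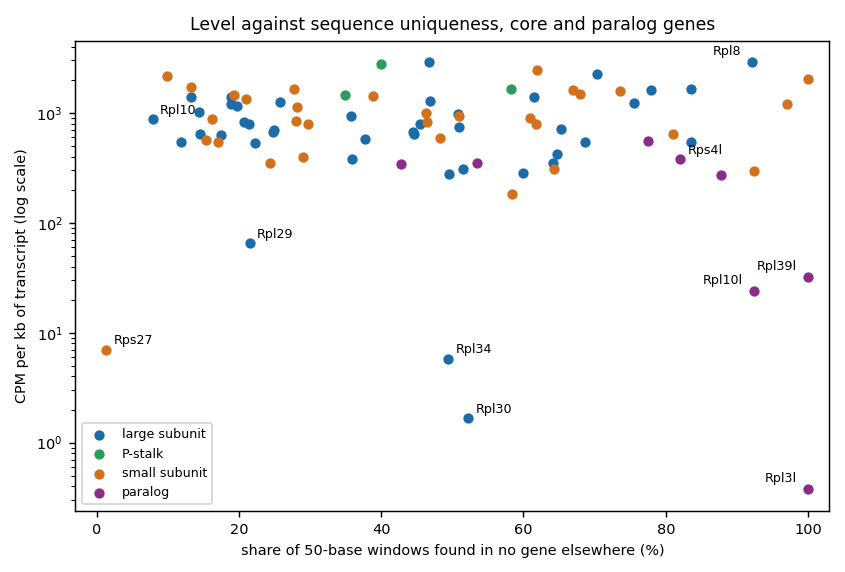
Level in CPM per kb of transcript (log axis, mean of 6 libraries) against the percent of 50-base windows found in no gene elsewhere, for 76 core genes and 8 paralogs coloured by class. Rps27 lies at the far left with 1.35%, whereas Rpl34 and Rpl30 lie low near 50%.

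The question of the comparison was which genes change their expression when Morc3 is lost. No core gene was called at an adjusted p under 0.01 by edgeR, and the smallest adjusted p was 0.139, for Rps26. Over all 12222 genes tested, 1.28% were called, of which 0.859% of the genes were higher and 0.417% lower in ko. An unadjusted p under 0.05 was found for 10 of the 76 core genes (13.2%), against 14.3% of all genes. DESeq2 and limma-voom called 0 of 76 as well. The core log2 fold changes lay between -0.30 and 0.26, and 60 of the 76 were within 0.1 of 0. The median standard error was 0.063.

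The ko and wild-type libraries did not overlap for 13 core genes (17.1%), 12 of them higher and 1 lower in ko, against 19.9% of all genes tested (9.67% higher, 10.2% lower). Of the 12 higher genes, 11 belong to the large subunit, which is 26.2% of its 42 core genes, beside 9.67% higher over all genes tested. In the small subunit 6.45% of 31 genes did not overlap, Rps26 as higher and Rps24 as lower in ko. None of the 13 passed the test. The large subunit had a median log2 fold change of 0.04 (32 of 42 above 0), the P-stalk -0.01 (1 of 3) and the small subunit 0.03 (21 of 31), beside -0.00010 over all genes tested.

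In the whole core, 54 of 76 genes (71.1%) had a log2 fold change above 0, beside 49.98% of all genes, with a median of 0.03. This count varied with single libraries: ko clone 2 was the highest library for 39 of the 76 genes, p43 for 24, and p56 was the lowest for 30. The median deviation of the core from its mean over 6 libraries was -0.00, 0.07 and -0.03 on the log2 scale in ko clones 1, 2 and 3 and -0.05, 0.05 and -0.05 in p42, p43 and p56. Without ko clone 2 the count above 0 fell to 32 of 76 and the median to -0.0073. Without ko clone 1, ko clone 3 or p43 it rose to 60, 61 or 66, with medians of 0.04, 0.05 and 0.06, and without p42 or p56 it fell to 48 or 44, with a median of 0.01 in both. Scaling by library size gave 43 and upper-quartile scaling 48 of 76 genes above 0. The median over all genes tested moved as well. It was -0.023 and -0.015 under these 2 scalings, beside core medians of 0.0059 and 0.014.

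**Figure D3:**
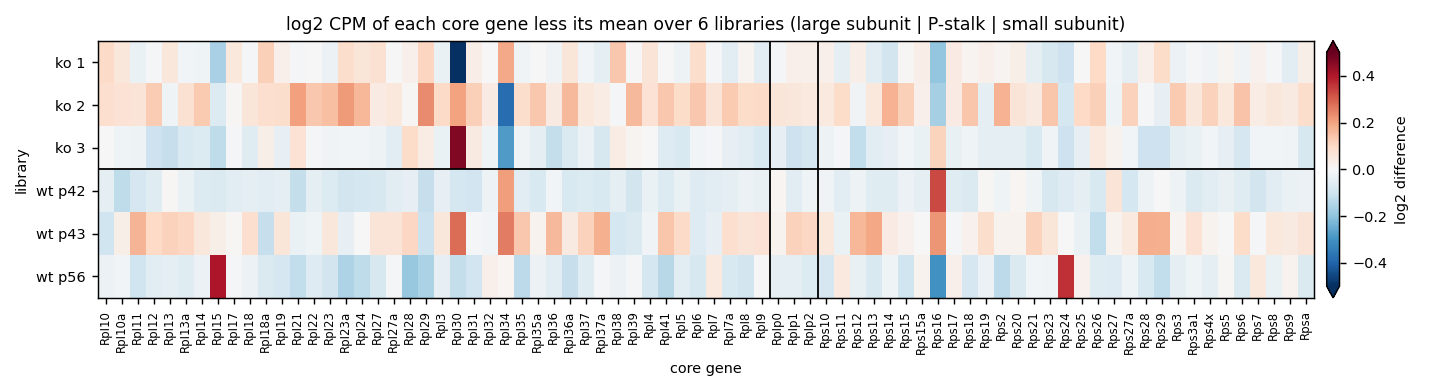
log2 CPM of each of the 76 core genes less its mean over the 6 libraries, as colour, with the libraries as lines and the genes grouped into large subunit, P-stalk and small subunit. ko clone 2 and wt p43 are high for most of the core, and Rpl15 and Rps24 stand out in wt p56.

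The largest positive core log2 fold changes were those of Rpl29, Rpl23a and Rpl21, all of the large subunit. Rpl29 lay at 40.7, 44.6 and 38.8 CPM in ko and 35.0, 35.1 and 33.9 CPM in wild type (log2 fold change 0.26, SE 0.08, edgeR adjusted p 0.155). Rpl23a, which lies at the exit of the peptide tunnel, was at 376, 409 and 350.5 CPM in ko and 332, 343 and 317 CPM in wild type (0.19, SE 0.07, edgeR adjusted p 0.197). For both genes the lowest ko clone was above the highest wild-type culture. For Rpl21 it was 0.19 (SE 0.06; adjusted p by edgeR 0.198). Rps26, a protein near the mRNA exit of the small subunit, was at 577, 585 and 557 CPM in ko and 511, 495 and 517 CPM in wild type (0.18, SE 0.05). None of these 4 was called under any alternative.

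The largest negative core log2 fold changes were those of Rpl34, Rpl15 and Rps24. Rpl34 was a low-count gene (-0.30, SE 0.23, edgeR adjusted p 0.625), at 3.14, 2.12 and 2.27 CPM in ko and 3.19, 3.29 and 2.78 CPM in wild type, and its groups overlapped. Rpl15 and Rps24 are the members on chromosome 14, where p56 stood apart. Rpl15 lay at 475, 507 and 486 CPM in ko and 506, 542 and 703 CPM in wild type (-0.25, SE 0.10, edgeR adjusted p 0.271). Rps24 lay at 952, 963 and 954 CPM in ko and 979, 1024 and 1318 CPM in wild type (-0.21, SE 0.09, edgeR adjusted p 0.334). In both genes p56 was the highest library by a wide margin, and without p56 their log2 fold changes were -0.10 and -0.06. Rps16, chosen after its values were seen, showed the reverse in p56: it lay at 175, 178 and 216 CPM in ko and 251, 233 and 162 CPM in wild type. With all libraries Rps16 was not called (-0.18, SE 0.14, edgeR adjusted p 0.619), but without p56 it was (-0.35, SE 0.08, edgeR adjusted p 0.0063), as the only core gene. Rps16 shared 50-base windows with 89 other genes, but 58.4% of its windows occurred in no gene elsewhere.

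**Figure D4:**
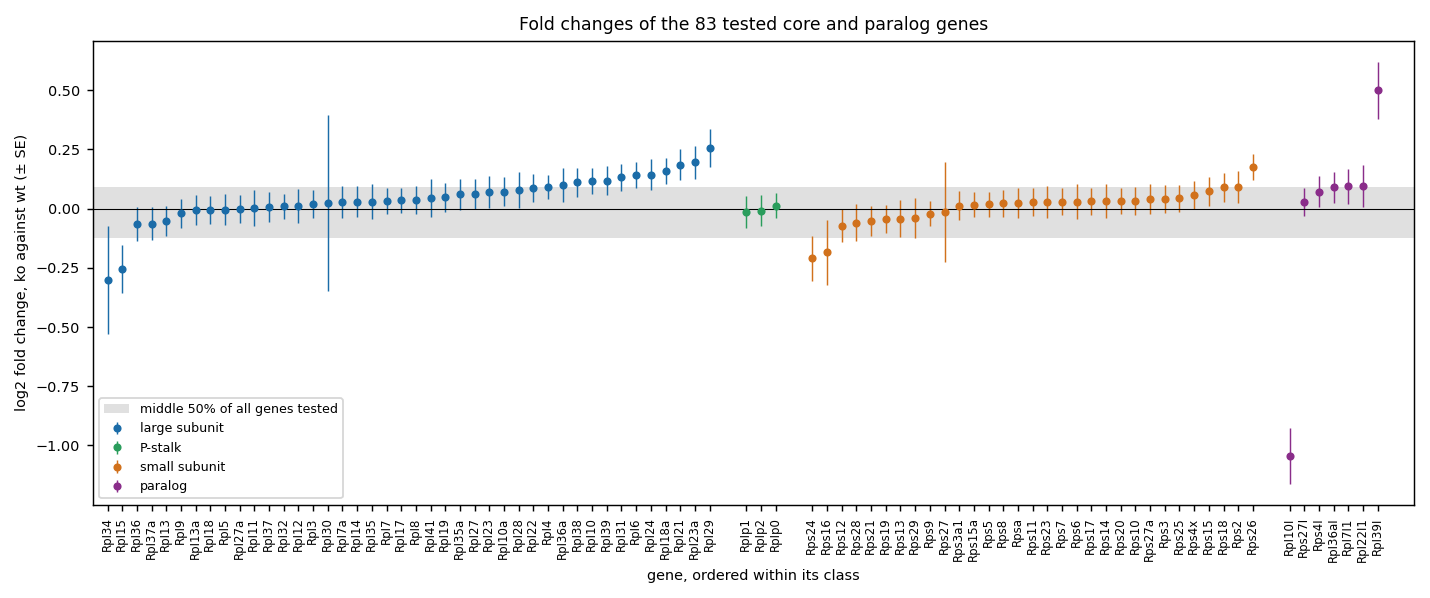
log2 fold change between ko and wt (points, with SE bars, from edgeR on 3 and 3 libraries) of the 83 tested core and paralog genes, ordered within their class, with a grey band for the middle 50% of all genes tested. All core genes lie between -0.30 and 0.26, whereas Rpl10l lies at -1.04 and Rpl39l at 0.50.

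Among the 8 paralogs, 7 had enough counts for the test and 1 was called, Rpl10l, as the only called gene among all 84 tested members, beside 1.28% of all genes tested. Rpl10l (chr12:66283379-66284401, minus strand, 1 exon) encodes a large subunit protein that replaces Rpl10 in male meiosis, when the X chromosome is silenced. It was counted 203, 164 and 160 times in ko and 424, 505 and 419 times in wild type, which is 18.8, 14.5 and 14.5 CPM and 30.7, 35.4 and 32.4 CPM. The highest ko clone was below the lowest wild-type culture. The means were 15.9 ± 2.46 and 32.8 ± 2.36 CPM (SD, n = 3 each), and the log2 fold change was -1.04 (SE 0.12, edgeR adjusted p 3.6e-04). The call held under all 16 alternatives, with log2 fold changes of -1.17 to -0.98 and adjusted p of 2.4e-11 to 0.0070. Of the 50-base windows of Rpl10l, 92.4% occur in no gene elsewhere, and the others occur in the pseudogene Gm14460 only. Rpl10l is a low-level gene here, at 23.8 CPM per kb.

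Its parent Rpl10 (chromosome X), whose product joins the 60S subunit late in its maturation, was at 745, 739 and 696 CPM in ko and 675, 651 and 683 CPM in wild type (log2 fold change 0.12, SE 0.06, edgeR adjusted p 0.369). Per kb, Rpl10l amounted to 1.97%, 1.53% and 1.63% of Rpl10 in ko and 3.55%, 4.24% and 3.70% in wild type. The log2 ratio differed by -1.17 between the groups, which did not overlap, with an exact permutation p of 0.1 (two-sided, adjusted 0.4 over 8 pairs), the smallest that 3 against 3 libraries can give. Only 7.87% of the windows of Rpl10 are its own, so its level is uncertain.

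The other paralog known from male germ cells, Rpl39l (chr16:10170226-10174911, plus strand, 3 exons), whose parent protein lines the peptide exit tunnel, was at 18.6, 22.4 and 21.2 CPM in ko and 16.7, 13.9 and 13.4 CPM in wild type. All ko clones were above all wild-type cultures, the opposite order to Rpl10l. Its log2 fold change of 0.50 (SE 0.12) had an edgeR adjusted p of 0.052, which missed the threshold of 0.01, and the adjusted p ran from 0.025 to 0.277 over 16 alternatives. All 50-base windows of Rpl39l were its own. The parent Rpl39 (chromosome X) was at 334, 375 and 338 CPM in ko and 314, 319 and 332 CPM in wild type (0.12, SE 0.06, edgeR adjusted p 0.441). Per kb, Rpl39l amounted to 6.19%, 6.66% and 6.99% of Rpl39 in ko and 5.93%, 4.84% and 4.50% in wild type. The log2 ratio differed by 0.39, again without overlap and with an exact permutation p of 0.1 (adjusted 0.4). The nearest tested gene to Rpl39l was Atf7ip2, with a gap of 17801 bases, at a log2 fold change of 0.58 (SE 0.14; adjusted p by edgeR 0.054).

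**Figure D5:**
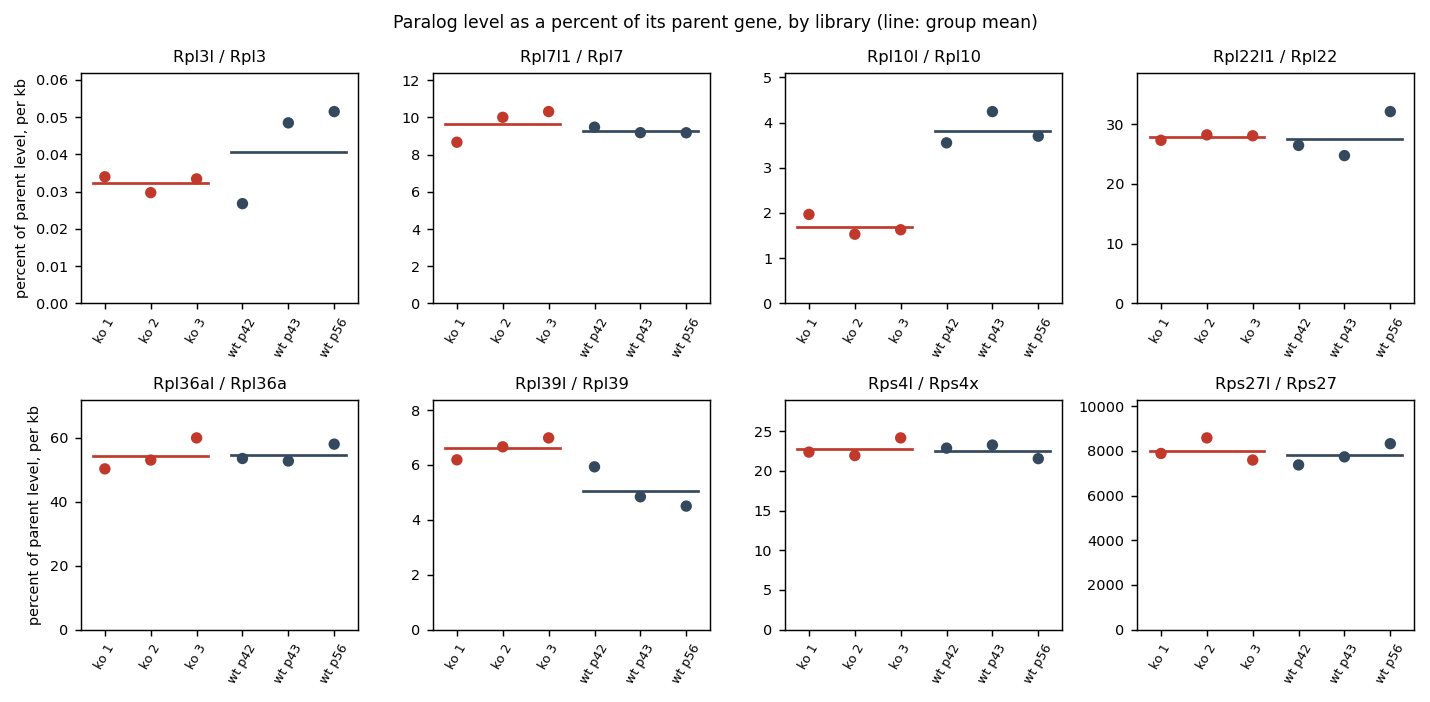
Level per kb of each of the 8 paralogs as a percent of its parent gene, by library, with red for ko, dark blue for wt and lines for the group means (n = 3 each), each axis starting at 0. The groups do not overlap for Rpl10l (1.53% to 1.97% against 3.55% to 4.24%) and Rpl39l (6.19% to 6.99% against 4.50% to 5.93%), and overlap for the other 6.

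Markers of germ cells and testis were followed beside these genes. The spermatid genes Prm1, Prm2 and Tnp1 were at 0 in all 6 libraries. The summed level of all 10 markers was 32.6 to 38.0 CPM in ko and 41.9 to 66.1 CPM in wild type. Of the 5 markers tested, 4 had log2 fold changes below 0 and 0 were called. Mael went the other way, at 5.45, 7.15 and 8.44 CPM in ko and 4.13, 4.62 and 6.18 CPM in wild type, and its groups overlapped. Wild-type p56 stood apart for Stra8, which lay at 0.51, 0.77 and 4.02 CPM in p42, p43 and p56. In the same order, Dazl lay at 2.75, 3.22 and 5.33 CPM and Sycp1 at 1.52, 1.19 and 3.09 CPM. For Ddx4 p56 was the highest library as well. Ddx4, a germline RNA helicase, made up most of the sum, with 20.3, 19.2 and 20.8 CPM in ko and 27.9, 29.5 and 41.5 CPM in wild type (log2 fold change -0.71, edgeR adjusted p 0.018). The part of these markers in the Rpl10l result was not tested, and in bulk samples fewer cells of a type and less RNA per cell cannot be told apart. Summed fibroblast markers were 5.73 to 6.08 CPM in ko and 9.20 to 10.5 CPM in wild type, mostly from Thy1, with Dcn and Postn at 0. Thy1 was the only fibroblast marker tested and was called lower in ko (log2 fold change -0.86, SE 0.14, edgeR adjusted p 0.0064). Every other fibroblast marker was at most 0.91 CPM in any library, and its groups overlapped. Col1a1 lay at 0.55, 0.35 and 0.54 CPM in ko and 0.22, 0.56 and 0.15 CPM in wild type. Summed endoderm markers were 1.48 to 1.94 CPM in ko and 2.32 to 3.08 CPM in wild type.

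The remaining 6 paralogs did not separate the groups. Rpl3l was counted only 5, 5 and 5 times in ko and 5, 10 and 9 times in wild type and was not tested, beside muscle markers that summed to 1.76 to 2.47 CPM in ko and 1.75 to 2.70 CPM in wild type. Its parent Rpl3, a protein at the peptidyl transferase centre, was at 1335, 1458 and 1333 CPM in ko and 1328, 1419 and 1326 CPM in wild type (log2 fold change 0.02, SE 0.06). Rpl3l thus stood at 0.030% to 0.034% of Rpl3 in ko and 0.027% to 0.052% in wild type. With 14.4% of the windows of Rpl3 its own, this ratio is uncertain too.

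Rpl7l1, a paralog that acts in the assembly of the large subunit, was at 326, 396 and 389 CPM in ko and 345, 337 and 359 CPM in wild type (0.09, SE 0.08, edgeR adjusted p 0.662). Rpl22l1, whose product can take the place of Rpl22, was at 186, 211 and 191 CPM in ko and 175, 166 and 209.9 CPM in wild type (0.09, SE 0.09, edgeR adjusted p 0.707). Rpl22 was at 587, 644 and 585 CPM in ko and 569.6, 578 and 562 CPM in wild type (0.09, SE 0.06). Rpl22l1 thus amounted to 27.3% to 28.2% of Rpl22 in ko and to 26.4%, 24.7% and 32.1% in p42, p43 and p56. The wider range in wild type came with the high value of p56.

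Rpl36al was at 176, 199 and 191 CPM in ko and 170.1, 182 and 179 CPM in wild type (0.09, SE 0.07, edgeR adjusted p 0.619). Its parent Rpl36a was at 322, 344 and 293 CPM in ko and 292, 318 and 284 CPM in wild type (0.10, SE 0.07). Rpl36al had the highest share of its parent among the large subunit paralogs, 50.2% to 59.9% over the 6 libraries. Only 53.5% of its windows and 14.5% of those of Rpl36a were unique to the gene.

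Rps4l, a copy of Rps4x with 1 exon that is annotated as a transcribed pseudogene, was at 289.9, 312 and 313 CPM in ko and 288, 309 and 274 CPM in wild type (0.07, SE 0.06, edgeR adjusted p 0.698). Rps4x was at 1602, 1757 and 1605 CPM in ko and 1559, 1640.4 and 1573 CPM in wild type (0.06, SE 0.06). Rps4l amounted to 21.5% to 24.1% of Rps4x per kb over the 6 libraries. Only 27.75% of the windows of Rps4x are its own, so this ratio is uncertain.

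Rps27l, which is known as a p53 target, was at 274, 296 and 269 CPM in ko and 270.3, 274 and 279 CPM in wild type (0.03, SE 0.06, edgeR adjusted p 0.893). Rps27 was at 2.40, 2.38 and 2.45 CPM in ko and 2.53, 2.45 and 2.32 CPM in wild type (-0.01, SE 0.21), so that Rps27l was counted far above its parent, in contrast to every other pair. With 1.35% of its windows its own, the level of Rps27 and thus this ratio are uncertain. The differences of the log2 ratio to the parent were between -0.33 for Rpl3l and 0.05 for Rpl7l1 in these 6 pairs, with exact permutation p of 0.4 to 1.

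Rps19bp1 was at 29.8, 36.1 and 28.7 CPM in ko and 29.2, 31.0 and 31.9 CPM in wild type (0.04, SE 0.10). Outside the symbol rule, Gnb2l1, also named Rack1, a scaffold on the small subunit, had a log2 fold change of -0.00 (SE 0.05), and Fau, which encodes a fusion with a small subunit protein, had one of -0.03 (SE 0.06). Neither was called.

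Genes that make and use ribosomes, and genes around p53, were examined in 6 lists. Of 176 tested genes 1 was called, beside 1.28% of all genes tested: Eif2s2, the beta subunit of the factor that brings the initiator tRNA to the small subunit. Eif2s2 was at 851, 843 and 902 CPM in ko and 504, 483 and 509 CPM in wild type, with all ko clones far above all wild-type cultures (log2 fold change 0.79, SE 0.06; adjusted p by edgeR 8.3e-06), and its call held under all 16 alternatives. Of the other translation factors 0 of 40 were called, and Eif4a2, an initiation helicase chosen after its values were seen, came nearest (0.31, SE 0.06, edgeR adjusted p 0.020). None of 21 genes of RNA polymerase I transcription, 10 of snoRNPs, 43 of 60S assembly, 45 of 40S assembly and 16 around p53 was called. Their median log2 fold changes were 0.07, 0.08, 0.07, 0.05 and -0.00, and that of the translation factors was 0.06, beside -0.00010 over all genes.

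For Rpl10l and Rpl39l, the tested genes with the most similar pattern over the 6 libraries were sought by Pearson's r of log2 CPM. They were Zfpm1, Stag3, Dixdc1, Ppm1h and Camk1 for Rpl10l (r 0.991 to 0.994) and Mnd1, BC031181, Kdm4c, Mtap7d3 and Prune for Rpl39l (r 0.984 to 0.991). These genes were picked as the best of 12222 over 6 shared libraries, so that the values are a description.

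Reads from the opposite strand made up at most 0.63% of the counts of both strands of a member, other than 7.14% for the low Rpl3l. Ignoring strand lowered the counts of Rpl32, Rpl5 and Rpl31 to 81.1%, 88.7% and 92.9% of the sense counts, and those of the called Rpl10l stayed at 100.1%.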

How the data were processed

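Total RNA of 3 ko clones and 3 wild-type cultures was DNase-treated, rRNA-depleted and made into strand-specific libraries, read from both ends over 50 bp. Alignment by the authors was to mm10 with STAR (gene annotation not given in the sources used here) and they deposited its raw gene counts, unstranded and for each strand. Reads with several positions are not assigned to genes by this counter and amounted to 16.3% to 17.4%. The strand column with the larger total was taken as sense. It was tested with edgeR 4.0.16 (R 4.3.3; TMM, filterByExpr with a minimum count of 10, quasi-likelihood test, Benjamini-Hochberg over all genes, called at an adjusted p under 0.01), and limma 3.58.1 and DESeq2 1.42.0 were alternatives. CPM use TMM library sizes. The SE of a log2 fold change was derived as its absolute value over the square root of the F statistic of the quasi-likelihood test. Counting error is smallest for the genes with the most counts and large for the low counts of Rpl3l, Rpl30, Rpl34 and Rps27.

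Of 24054 gene rows, 22753 matched GENCODE M21 (GRCm38, the assembly of mm10) by symbol and 935 by an older symbol. Positions, lengths and 50-base windows come from the shortest basic transcript with the coding length of the principal one. Named were all paralogs and parents, called members, the core genes with the 3 largest changes in each direction and the 3 highest and lowest levels per kb, and members on chromosome 14. Members and lists were chosen with earlier results of these data known.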

Additional observations from a re-analysis of the deposited data

How the results depend on the processing

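Other normalizations, filters, tools and strands and leaving out each library gave 16 alternatives. 1 ribosomal protein gene, Rpl10l, was called in each of them, and leaving out 1 library gave 1 to 2 calls, where the second was Rps16 without wild-type p56. Of 430 fits for 27 named genes, 428 stayed on the same side of the threshold. The exceptions were Rps16 and Morc3, which had an adjusted p of 0.018 in edgeR's robust fit. Over all genes, the 156 calls became 259 with DESeq2, 286 with no filter on low counts and 331 at an adjusted p under 0.05, and leaving out 1 library gave 72 to 385, of which the highest came without p56 and the lowest without ko clone 3. Leaving out ko clone 1 or 2 gave 96 or 73. In the pathway lists DESeq2, no filter and an adjusted p under 0.05 each gave 2 calls, Eif2s2 and Eif4a2, and leaving out 1 library gave 1 to 3, the highest without p56. With Rn45s left out of the total, the core share in wild type was 6.34%, as was the ko share at 6.35%. The differences of the log2 ratios to the parent that turned in sign when 1 library was left out were small: -0.065 to 0.12 for Rpl22l1, -0.083 to 0.044 for Rpl36al, -0.025 to 0.044 for Rps4l and -0.012 to 0.085 for Rps27l. The direction of the Rpl10l and Rpl39l ratios was kept, with -1.27 to -1.09 and 0.30 to 0.50. The causes were not tested. No paired analysis was possible because the clones and cultures share no replicate numbers.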
